A study of Mus musculus with 33 samples.

Results

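Retinoic acid is made and removed inside cells by a small set of enzymes, and 8 of their genes are described here: Cyp26a1, Cyp26b1, Cyp26c1, Dhrs3, Aldh1a1, Aldh1a2, Aldh1a3 and Rdh10. They were picked by gene symbol and are 8 of the 47729 genes in the count tables. The series profiled retinal progenitor cells from embryonic day 14 retina of C57BL/6J mice by bulk RNA sequencing, in 33 libraries that form 11 groups of 3. At day 0 the groups were untreated cells, cells primed with COCO protein (cone primed) and cells primed with taurine plus retinoic acid (rod primed). The same agents defined the cone and rod induction groups on days 5, 12, 21 and 35. COCO is a secreted antagonist of BMP, TGF-beta and Wnt signals. All groups thus share the strain, the starting tissue and its age. The rod agent is at the same time the compound that the Cyp26 enzymes degrade. Taurine was given together with retinoic acid in every rod group, so their parts in a difference cannot be told apart. The labels do not give the doses, the length of priming or whether the induced cells were still in contact with the agents when collected.

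Vitamin A circulates as retinol. Rdh10, a retinol dehydrogenase, oxidises retinol to retinal, and Dhrs3, a retinal reductase, turns retinal back into retinol. The retinaldehyde dehydrogenases Aldh1a1, Aldh1a2 and Aldh1a3 oxidise retinal irreversibly to retinoic acid, which binds RAR and RXR nuclear receptors on pairs of short sites in DNA. Cyp26a1, Cyp26b1 and Cyp26c1 are cytochrome P450 enzymes that hydroxylate retinoic acid for removal. In the mouse embryo Aldh1a1 marks the dorsal retina, Aldh1a3 marks the ventral retina, Aldh1a2 is found in the mesenchyme around the eye, and Cyp26 genes mark the band of retina between the dorsal and ventral zones. Cyp26a1 and Dhrs3 are known for being induced by retinoic acid in many tissues.

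The libraries held 7511837 to 19166442 gene counts (median 12985662). Levels are given as CPM, which are counts scaled to a common library size, here with TMM, a normalisation that centres most genes between libraries, and genes are compared with each other only as CPM per kilobase of exon. A change was called at an adjusted p under 0.05 in edgeR's quasi-likelihood test over 18150 genes, and all 8 enzymes passed its filter on low counts. Retinal progenitor markers were present in the untreated libraries, with Pax6 at 541 to 578 CPM. The labels do not say whether replicates came from separate cultures or animals, so p-values measure the spread between these libraries only. In bulk RNA, fewer cells of a type and less RNA per cell cannot be told apart. The deposited TPM files were not used for levels, because they appeared to follow the opposite strand. mt-Nd6, the only 1 of 13 mitochondrial protein genes on the minus strand, took 73.0 to 85.1% of that set's TPM but 2.01 to 5.47% of its counts per length.

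The stretch of DNA just before the start of 3 enzyme genes is shown first, because these 3 were the ones called in rod primed cells. The sequences come from RefSeq (GRCm38.p6), read 5′ to 3′ on the gene's strand, and stop before the first annotated base of the gene. Windows of 300 bases were held for 6 of the 8 genes (9 windows). Both strands were searched for direct repeats of a 6-letter site, the kind bound by retinoic acid receptors, with spacers of 1, 2 or 5 bases. The site was accepted in the spelling AGGTCA, in the second spelling AGTTCA, in the third spelling GGGTCA and in the last spelling GGTTCA. Capitals mark the only match.
Cyp26a1, chr19:37697558-37697797, plus strand: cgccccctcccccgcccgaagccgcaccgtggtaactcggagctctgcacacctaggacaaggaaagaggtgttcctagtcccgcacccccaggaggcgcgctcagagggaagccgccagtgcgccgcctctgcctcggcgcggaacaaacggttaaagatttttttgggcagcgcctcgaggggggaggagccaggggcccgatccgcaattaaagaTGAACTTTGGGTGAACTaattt
Cyp26b1, chr6:84593909-84594060, minus strand: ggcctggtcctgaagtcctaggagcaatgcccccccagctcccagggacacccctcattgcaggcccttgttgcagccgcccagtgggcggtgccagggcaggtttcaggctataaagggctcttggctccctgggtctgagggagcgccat
Dhrs3, chr4:144892577-144892826, plus strand: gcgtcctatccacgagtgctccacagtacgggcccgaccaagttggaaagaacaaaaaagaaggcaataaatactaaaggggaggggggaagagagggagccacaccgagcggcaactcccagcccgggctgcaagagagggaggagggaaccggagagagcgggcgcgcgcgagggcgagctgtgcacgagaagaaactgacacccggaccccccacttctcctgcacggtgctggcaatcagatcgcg

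The match before Cyp26a1 is a direct repeat with a spacer of 5 bases, on the strand opposite to the gene, at chr19:37697776-37697792, and it begins 32 bases before the RefSeq start site. Such a repeat was found in 32 of the 32851 windows in the table, or 0.0974%. Repeats with a spacer of 1 base were in 0.222% of all windows and those with a spacer of 2 bases in 0.268%, and neither was in a window of the 6 enzyme genes. A match of letters is a description of the window, and the libraries hold no binding data.

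Cyp26a1 (chromosome 19, 37697798 to 37701536, GRCm38, plus strand), the retinoic acid hydroxylase known for its strong response to its own substrate, was high in every rod library and low in every cone library. Untreated cells held 16.1, 14.6 and 37.3 CPM, and cone primed cells held 14.2, 36.5 and 23.6 CPM. Rod primed cells held 230, 251 and 285 CPM. The untreated and cone primed ranges overlapped, and the rod primed libraries lay above both. In rod culture the gene had 373, 411 and 321 CPM on day 5, 210, 95.2 and 210 CPM on day 12, 138, 162 and 130 CPM on day 21, and 226, 154 and 184 CPM on day 35. In cone culture it had 12.9, 13.6 and 15.4 CPM on day 5 and then 5.48, 3.34 and 2.32 CPM on day 12. The later cone libraries held 2.36, 8.99 and 3.85 CPM on day 21 and 2.73, 5.06 and 2.74 CPM on day 35. The lowest rod library of any day was thus above the highest cone library of any day, and rod day 12 replicate 2 was the lowest rod library.

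**Figure D1:**
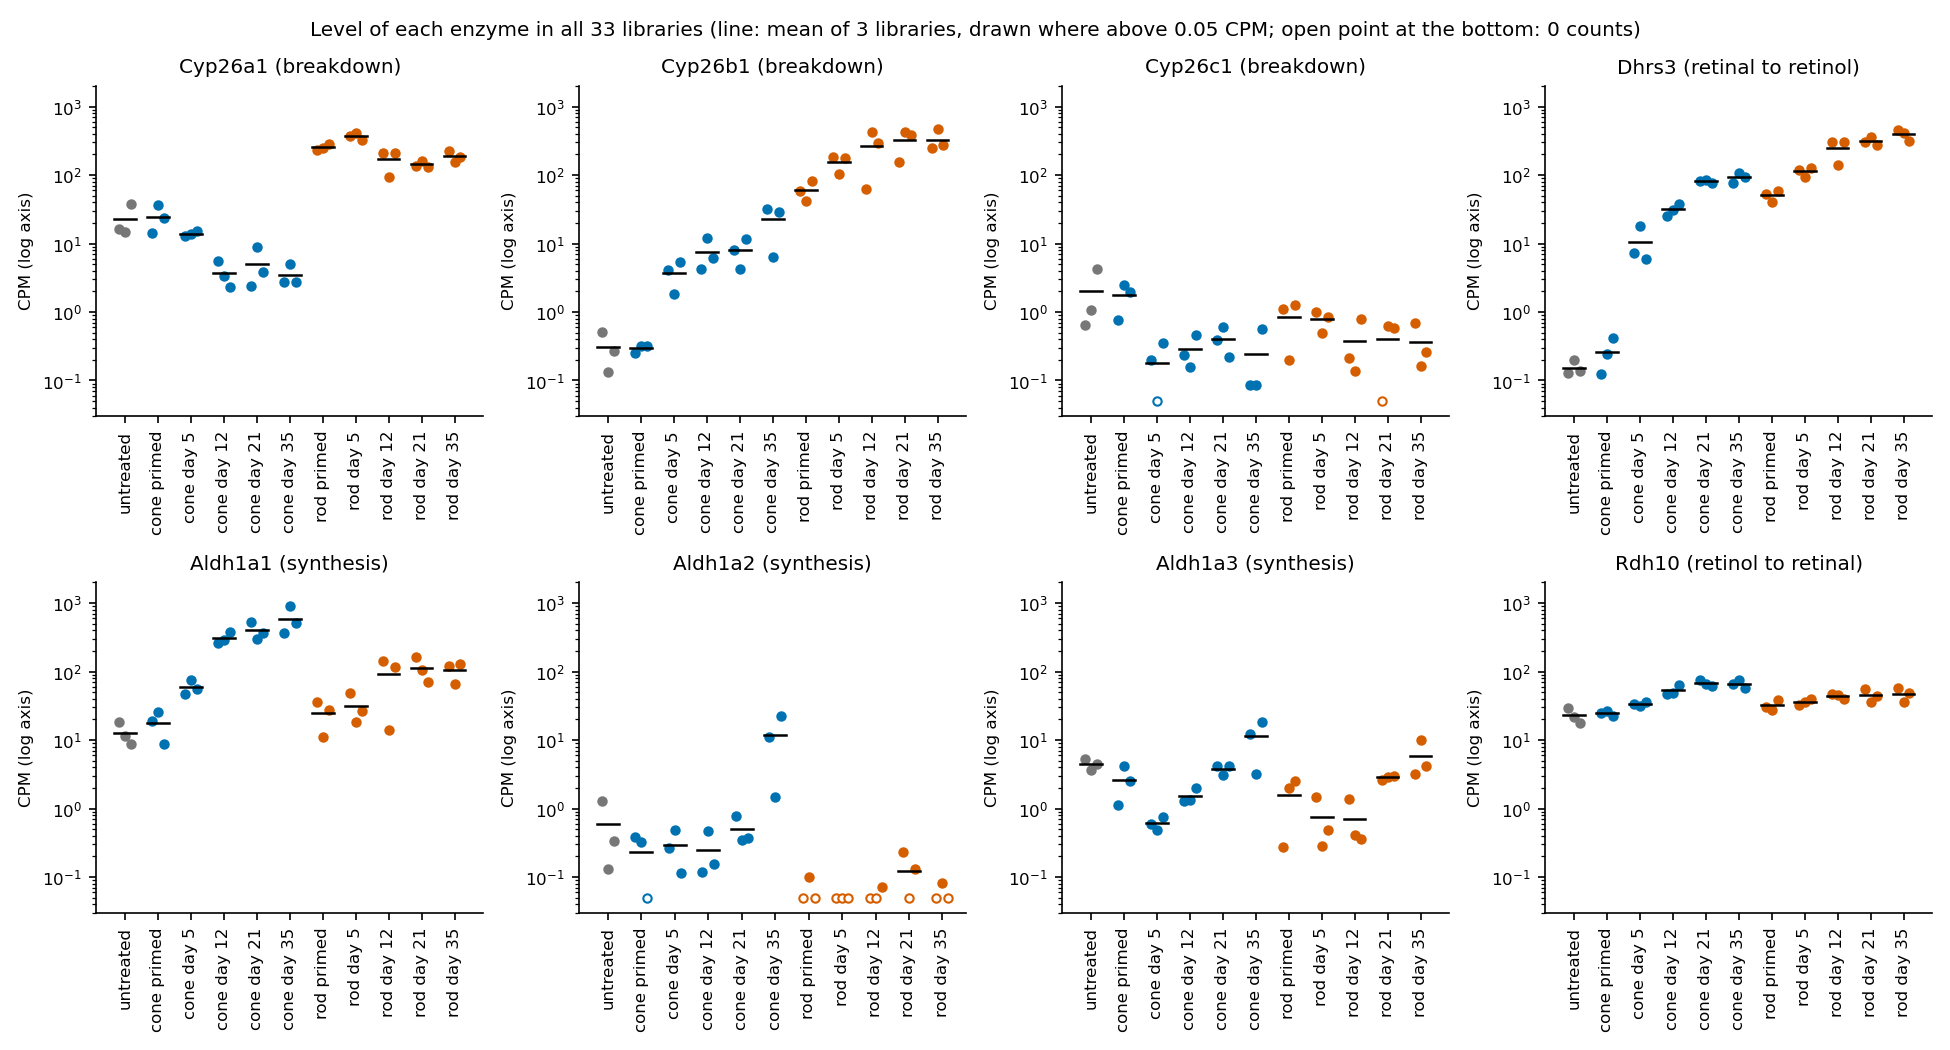
Level of each of the 8 enzyme genes in all 33 libraries, in CPM on a log axis, by group (grey untreated, blue cone, orange rod); each point is a library, lines are group means drawn where above 0.05 CPM, and open points at the bottom are libraries with 0 counts. Cyp26a1, Cyp26b1 and Dhrs3 were higher in each rod group than in the cone group of the same day, and Aldh1a1 was higher in cone than in rod libraries from day 12.

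Rod priming raised Cyp26a1 by 3.48 ± 0.39 (SE) on the log2 scale over untreated cells (adjusted p = 6.11e-07). The cone minus rod difference was -3.35 ± 0.39 on day 0 (adjusted p = 1.43e-06), and that comparison uses the same rod primed libraries. It was -4.72 ± 0.41 on day 5, -5.57 ± 0.45 on day 12, -4.78 ± 0.43 on day 21 and -5.74 ± 0.45 on day 35, with adjusted p from 1.57e-08 to 1.03e-07. In cone culture Cyp26a1 fell with time, and relative to cone primed cells it fell by 2.80 on the log2 scale on day 12, 2.26 on day 21 and 2.83 on day 35 (adjusted p = 5.99e-06, 4.72e-05 and 2.80e-06). The cone day 5 value of -0.84 ± 0.37 was not called (adjusted p = 0.107). In rod culture only the day 21 fall of 0.83 relative to rod primed was called (adjusted p = 0.0477). That call was lost when any of the 6 libraries compared was left out, with adjusted p of 0.0604 to 0.127, and with the replicate number as a block (adjusted p = 0.053).

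Cyp26b1 (chromosome 6, 84571414 to 84593908, minus strand), the second hydroxylase, was almost absent at the start and kept a higher level than cone culture in all rod groups. Untreated libraries held 4, 2 and 4 counts (0.512, 0.133 and 0.272 CPM) and cone primed libraries held 2, 4 and 3 counts (0.252, 0.323 and 0.314 CPM). Rod primed libraries held 437, 415 and 927 counts (59.3, 41.8 and 83.2 CPM). At day 5 rod libraries held 184, 105 and 177 CPM against 4.08, 1.82 and 5.35 CPM in cone. The groups were far apart at both times. At day 12 rod libraries held 62.8, 430 and 293 CPM and cone libraries 4.32, 12.0 and 6.11 CPM. At day 21 rod libraries held 155, 420 and 389 CPM and cone libraries 8.00, 4.28 and 11.7 CPM. At day 35 rod libraries held 249, 468 and 272 CPM and cone libraries 32.1, 6.27 and 29.1 CPM. The groups did not overlap on any day, and cone day 35 replicate 2 was far below the other 2 cone libraries of its day.

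The fitted rise of Cyp26b1 on rod priming was 7.79 ± 0.91 on the log2 scale (adjusted p = 1.53e-06), with 10 counts in all 3 untreated libraries together limiting its precision. The cone minus rod difference was -7.63 ± 0.93 on day 0, -5.37 ± 0.65 on day 5, -5.11 ± 0.64 on day 12, -5.32 ± 0.64 on day 21 and -3.87 ± 0.59 on day 35, with adjusted p at or below 5.49e-05. Without cone day 35 replicate 2 the day 35 difference was -3.44 (adjusted p = 0.000448). Cyp26b1 rose in both cultures after priming. In cone it was above cone primed by 3.60 ± 1.13 on day 5, 4.61 ± 1.05 on day 12, 4.70 ± 1.05 on day 21 and 6.18 ± 0.96 on day 35 (adjusted p = 0.0222, 0.00069, 0.000473 and 3.90e-06). The day 5 rise was lost without any of the 3 cone primed libraries or without cone day 5 replicate 3, with adjusted p of 0.0541 to 0.0889. Under voom with quality weights the rises on days 5, 12 and 21 were not called (adjusted p = 0.243, 0.0875 and 0.0526). In rod it was above rod primed by 2.09 ± 0.54 on day 12, 2.39 ± 0.55 on day 21 and 2.42 ± 0.55 on day 35 (adjusted p = 0.0029, 0.000699 and 0.000499), while the day 5 value of 1.34 ± 0.53 was not called (adjusted p = 0.0821).

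Cyp26c1 (chromosome 19, 37685581 to 37693398, plus strand), the third hydroxylase and the upstream neighbour of Cyp26a1, had few counts everywhere. It had 0 to 63 counts per library, and 10 counts or more in 7 of 33 libraries. Untreated cells held 0.64, 1.07 and 4.28 CPM, cone primed cells 0.755, 2.51 and 1.99 CPM, and rod primed cells 1.09, 0.202 and 1.26 CPM. In the later groups it ranged from 0 to 0.599 CPM in cone and from 0 to 1.01 CPM in rod. All neighbouring groups in the order of its level overlapped, and untreated replicate 3 was the highest library. No cone against rod difference was called, with the estimate over the mean of days 5 to 35 at -0.73 ± 0.50 on the log2 scale and a 95% interval of -1.71 to 0.25. In cone culture it fell against cone primed by 3.20 on the log2 scale on day 5, 2.58 on day 12, 2.12 on day 21 and 2.79 on day 35 (adjusted p = 0.0135, 0.0219, 0.0465 and 0.012). Each of these calls was lost without cone primed replicate 2 (adjusted p = 0.0681, 0.0827, 0.152 and 0.0509). They were also lost without cone day 5 replicate 2 (0.0714), without cone day 12 replicate 1 or 2 (0.0619 and 0.0811) and without cone day 35 replicate 1 or 2 (0.0559 and 0.0523). The day 21 call was lost further without cone primed replicate 3 or any cone day 21 library, with adjusted p of 0.0539 to 0.156. Under voom with quality weights the day 12 and day 21 falls were not called (adjusted p = 0.0557 and 0.05).

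The deposited TPM of Cyp26c1 gave another picture than its counts, with the rod libraries high. It was 14.7, 26.7 and 26.6 in rod primed cells and 35.0, 88.2 and 49.4 at rod day 5, against 4.36, 2.96 and 6.48 at cone day 5 and 2.58, 2.59 and 11.0 in untreated cells. At day 35 it was 16.0, 11.0 and 13.3 in rod and 0, 2.19 and 0.301 in cone. The rod and cone libraries did not overlap in TPM on day 5 or day 35. Their CPM overlapped on day 35 but not on day 5, at 0.5 to 1.01 CPM in rod and 0 to 0.349 CPM in cone. The day 5 cone minus rod difference in counts was -2.00 ± 0.97 on the log2 scale, and edgeR did not call it (adjusted p = 0.216). Because the TPM values appeared to follow the opposite strand, they are not read as the level of Cyp26c1. The gene ends 4399 bp before Cyp26a1 starts on the same strand, and where these reads came from was not tested.

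**Figure D2:**
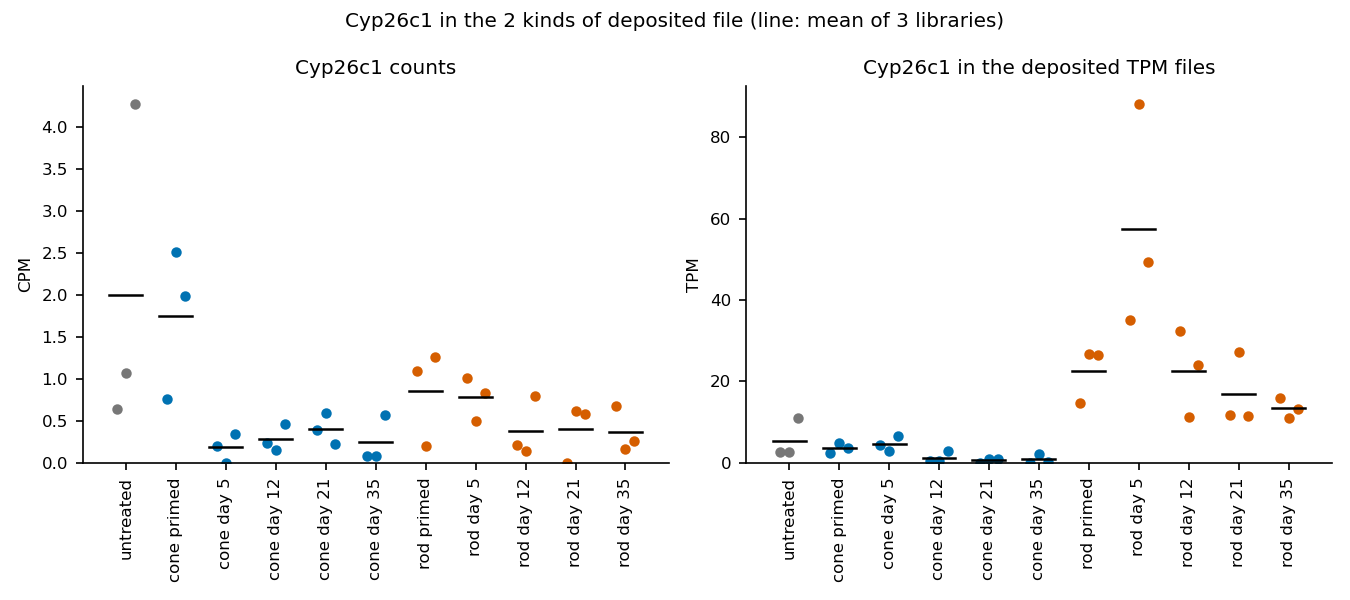
Cyp26c1 in each library as CPM from the counts and as the deposited TPM, by group (grey untreated, blue cone, orange rod). Rod libraries reach 88.2 in TPM on day 5, while no library after day 0 is above 1.01 CPM.

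Dhrs3 (chromosome 4, 144892827 to 144928209, plus strand), which returns retinal to retinol, had nearly no reads before rod priming and rose in both cultures. The untreated libraries held 1, 3 and 2 counts (0.128, 0.200 and 0.136 CPM), and the cone primed libraries 1, 3 and 4 counts (0.126, 0.243 and 0.419 CPM). The rod primed libraries held 395, 396 and 661 counts (53.6, 39.9 and 59.3 CPM). The rod primed libraries lay far above the other day 0 groups, which overlapped each other. In rod culture Dhrs3 had 119, 93.5 and 127 CPM on day 5, 305, 141 and 306 CPM on day 12, 305, 354 and 278 CPM on day 21, and 461, 412 and 315 CPM on day 35. In cone culture it had 7.35, 17.9 and 5.87 CPM on day 5, 25.4, 31.2 and 37.9 CPM on day 12, 82.4, 85.9 and 75.9 CPM on day 21, and 77.7, 108 and 94.3 CPM on day 35. Rod was above cone on every day without overlap, and both cultures ended above their primed cells.

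The rise of Dhrs3 on rod priming was 8.23 ± 0.52 on the log2 scale (adjusted p = 1.93e-11). The cone minus rod difference narrowed from -7.52 ± 0.50 on day 0 to -3.45 ± 0.31 on day 5, -2.99 ± 0.30 on day 12, -1.94 ± 0.28 on day 21 and -2.08 ± 0.28 on day 35, all called with adjusted p at or below 4.24e-05. A test for change of this difference with day, set against day 0, was called as well (adjusted p = 1.43e-05). Change among days 5, 12, 21 and 35 alone was not tested. Against its own primed cells, cone culture rose by 5.22 ± 0.54 on day 5 and 8.39 ± 0.49 on day 35 (adjusted p = 1.83e-07 and 1.69e-13). Rod culture rose by 1.15 ± 0.28 on day 5 and 2.96 ± 0.30 on day 35 (adjusted p = 0.00543 and 3.95e-09). Days 12 and 21 were called upward in both cultures too.

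Rdh10 (chromosome 1, 16105774 to 16133734, plus strand), the retinol dehydrogenase that supplies retinal, had the flattest course of the 8 genes: its highest group mean was 2.96 times its lowest. Untreated cells held 29.4, 21.7 and 17.7 CPM, cone primed 24.5, 26.8 and 22.4 CPM, and rod primed 30.8, 27.6 and 38.6 CPM. Cone culture held 33.3, 31.6 and 35.5 CPM on day 5, 47.2, 48.5 and 64.2 CPM on day 12, 76.5, 65.3 and 62.5 CPM on day 21, and 64.9, 74.3 and 57.9 CPM on day 35. Rod culture held 32.8, 35.6 and 39.6 CPM on day 5, 46.4, 45.7 and 39.5 CPM on day 12, 56.1, 36.0 and 44.2 CPM on day 21, and 58.2, 36.4 and 48.5 CPM on day 35. Neighbouring groups in the order of its level overlapped in 9 of 10 steps.

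Rdh10 rose in cone culture over cone primed by 1.12 ± 0.19 on the log2 scale on day 12, 1.47 ± 0.19 on day 21 and 1.42 ± 0.19 on day 35 (adjusted p = 1.48e-05, 2.03e-07 and 2.61e-07). In rod culture it rose over rod primed by 0.49 ± 0.18 on day 21 and 0.56 ± 0.18 on day 35 (adjusted p = 0.0272 and 0.0111). The rod calls were lost when single libraries were left out: on day 21 without rod primed replicate 1 or 2 or rod day 21 replicate 1 (adjusted p = 0.0822, 0.131 and 0.193), and on day 35 without rod primed replicate 2 or rod day 35 replicate 1 (0.0688 and 0.135). The day 21 rise was not called in a fit of the compared libraries only (0.0524). Rod primed against untreated differed by 0.51 ± 0.19, which edgeR did not call (adjusted p = 0.0829), while voom and DESeq2 did (0.0152 and 0.0461). The cone minus rod difference was called on day 21 only, at 0.58 ± 0.18 (adjusted p = 0.04). This call was lost without cone day 21 replicate 1, 2 or 3 (adjusted p = 0.18, 0.0783 and 0.0585) and without rod day 21 replicate 2 or 3 (0.211 and 0.125). It was lost too with no filter on low counts (0.0625) and in a fit of the compared libraries only (0.0748). Over the mean of days 5 to 35 the difference was 0.30 ± 0.09 (adjusted p = 0.0117), and it was not called without the libraries numbered 2 (0.24, adjusted p = 0.124) or 3 (0.29, adjusted p = 0.0971).

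Aldh1a1 (chromosome 19, 20492715 to 20643465, plus strand), the dorsal retinaldehyde dehydrogenase, rose in both cultures and reached a higher level in cone. It has a close paralogue, Aldh1a7, and 2 genes on the opposite strand overlap it, which makes the assignment of its reads less certain. Untreated cells held 18.4, 11.5 and 8.69 CPM, cone primed 19.0, 25.5 and 8.70 CPM, and rod primed 35.8, 11.1 and 27.3 CPM. These 3 groups overlapped. Cone culture held 46.8, 76.1 and 55.2 CPM on day 5, 265, 291 and 374 CPM on day 12, 529, 300 and 370 CPM on day 21, and 372, 895 and 510 CPM on day 35. Rod culture held 48.6, 18.2 and 26.7 CPM on day 5, 145, 14.2 and 117 CPM on day 12, 161, 105 and 71.4 CPM on day 21, and 120, 66.3 and 128 CPM on day 35. Cone and rod overlapped on day 5 and were apart from day 12 on, with rod day 12 replicate 2 far below the other libraries of its group.

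The cone minus rod difference of Aldh1a1 was 0.94 ± 0.55 on the log2 scale on day 5 (adjusted p = 0.319, not called), 1.76 ± 0.55 on day 12, 1.83 ± 0.55 on day 21 and 2.50 ± 0.56 on day 35 (adjusted p = 0.0379, 0.0336 and 0.00315). The day 12 call was lost without rod day 12 replicate 2, where the difference was 1.24 (adjusted p = 0.115). It was also lost without rod day 12 replicate 3 or cone day 12 replicate 1, 2 or 3, at adjusted p = 0.0692, 0.058, 0.0528 and 0.132. In a fit of the compared libraries only, day 12 was not called (1.74, adjusted p = 0.289) and day 5 was (0.95, adjusted p = 0.0496). The day 21 call was lost without cone day 21 replicate 1 or 3 (0.117 and 0.0617) and without rod day 21 replicate 2 or 3 (0.112 and 0.153). At day 35 the difference was called without each cone library, at 2.06 (adjusted p = 0.0232) without the high replicate 2. Over the mean of days 5 to 35 it was 1.76 ± 0.27 (adjusted p = 1.78e-05). Against primed cells, cone culture rose by 1.74 ± 0.57 on day 5, 4.12 ± 0.61 on day 12, 4.49 ± 0.62 on day 21 and 5.05 ± 0.64 on day 35 (adjusted p = 0.0288, 3.33e-06, 9.07e-07 and 1.46e-07). Without cone primed replicate 1 or 3 or cone day 5 replicate 2 the day 5 rise was not called (0.0575, 0.123 and 0.0853). Rod culture rose by 1.90 ± 0.57 on day 12, 2.19 ± 0.57 on day 21 and 2.09 ± 0.57 on day 35 (adjusted p = 0.00839, 0.0023 and 0.00284). Its day 12 rise was lost without rod primed replicate 2 or rod day 12 replicate 1 (0.0563 and 0.0662), and in a fit of the compared libraries only (0.115).

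Aldh1a2 (chromosome 9, 71215789 to 71296243, plus strand), the dehydrogenase of the mesenchyme around the eye, was close to absent outside cone day 35. The processed pseudogene Gm48124 overlaps it on the opposite strand. Aldh1a2 had 10 counts or more in 4 of 33 libraries and 0 counts in 11. Cone day 35 libraries held 130, 17 and 279 counts (11.1, 1.46 and 22.5 CPM). Rod day 35 libraries held 0, 1 and 0 counts. Untreated libraries held 10, 2 and 5 counts, cone primed 3, 4 and 0, and rod primed 0, 1 and 0. Cone libraries held 4, 8 and 2 counts on day 5, 1, 6 and 2 on day 12, and 6, 4 and 5 on day 21, while rod libraries held 0 to 3 counts on those days. The 3 cone day 35 libraries were thus above all other libraries in CPM, with replicate 2 just above the highest untreated library.

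At day 35 the ratio of cone to rod Aldh1a2 counts, scaled for library size, was 472, with a 95% interval of 84.3 to 18700 that covers counting error only, since the rod side rests on 1 count. The edgeR estimate was 8.37 ± 1.16 on the log2 scale (adjusted p = 2.49e-05), and it was 7.46 to 8.88 with any 1 cone day 35 library left out (adjusted p at or below 0.000206). At day 5 the rod libraries had 0 counts. Against a floor of 3 counts over the rod group, cone was 3.58-fold higher, with the counting error of the cone reads left out. The edgeR test did not call the day 5 difference (adjusted p = 0.12). DESeq2 did, at 4.29 on the log2 scale (adjusted p = 0.0454). Over the mean of days 5 to 35 the fitted difference was 4.53 ± 0.74 (adjusted p = 4.49e-05), and a mean of the log2 ratios of pooled counts with day 5 at that floor was 4.03. Within cone culture Aldh1a2 rose over cone primed on day 35 by 5.59 ± 0.93 (adjusted p = 1.34e-05) and was not called on days 5, 12 and 21.

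Aldh1a3 (chromosome 7, 66390890 to 66427517, minus strand), the ventral retinaldehyde dehydrogenase, was low, and edgeR called no cone against rod difference of it. Voom with quality weights called it higher in cone on day 35, at 1.35 on the log2 scale (adjusted p = 0.0469), where edgeR gave 0.98 ± 0.55 (adjusted p = 0.278). Untreated cells held 5.24, 3.67 and 4.48 CPM, cone primed 1.13, 4.12 and 2.51 CPM, and rod primed 0.271, 2.02 and 2.51 CPM. Cone culture held 0.601, 0.486 and 0.756 CPM on day 5, 1.28, 1.32 and 2.01 CPM on day 12, 4.20, 3.08 and 4.15 CPM on day 21, and 12.2, 3.18 and 18.6 CPM on day 35. Rod culture held 1.46, 0.286 and 0.486 CPM on day 5, 1.36, 0.409 and 0.360 CPM on day 12, 2.63, 2.93 and 3.00 CPM on day 21, and 3.14, 10.0 and 4.13 CPM on day 35. Levels were lowest on days 5 and 12 and highest on day 35 in both cultures. The cone minus rod difference over the mean of days 5 to 35 was 0.59 ± 0.32 on the log2 scale, with a 95% interval of -0.04 to 1.22 (adjusted p = 0.187). Cone culture fell by 2.09 on day 5 (adjusted p = 0.024) and rose by 2.09 ± 0.58 on day 35 against cone primed (adjusted p = 0.00308). The day 5 fall was lost without cone primed replicate 2 or 3 (adjusted p = 0.178 and 0.0502) and without cone day 5 replicate 1, 2 or 3 (0.0707, 0.0902 and 0.0536), and under voom (0.113). Rod culture rose by 1.78 ± 0.61 on day 35 (adjusted p = 0.0147), and this was lost without rod primed replicate 1 or rod day 35 replicate 2 (0.0786 and 0.145).

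**Figure D3:**
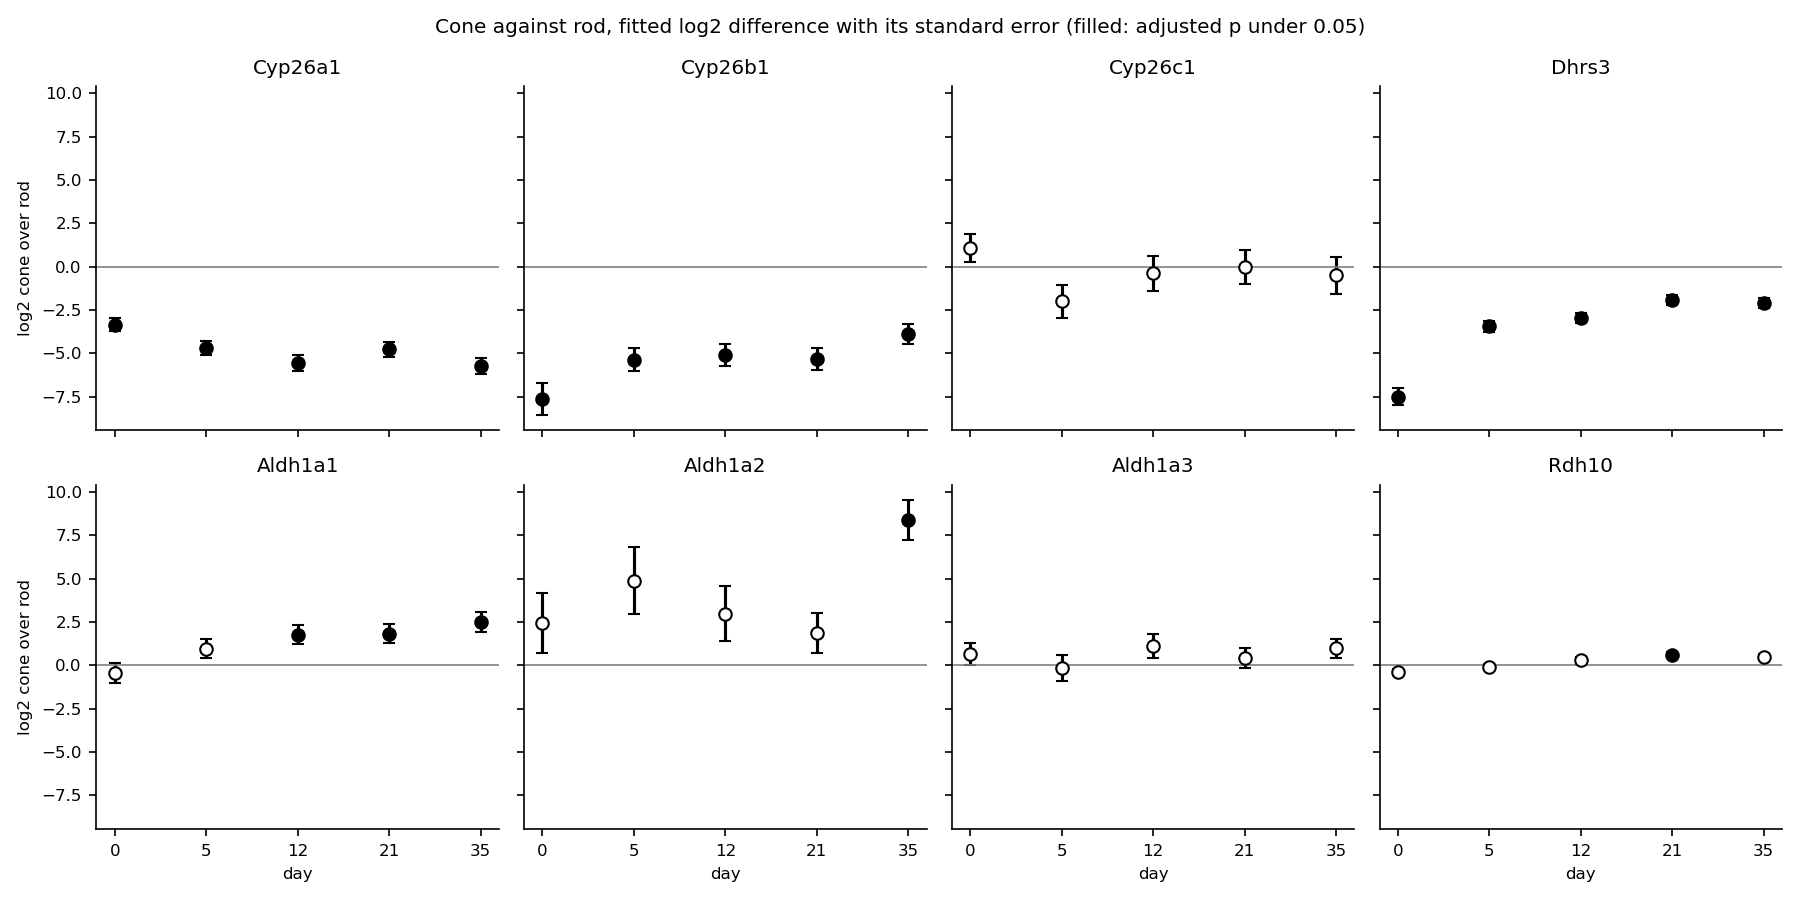
Fitted cone minus rod difference of each enzyme gene on days 0, 5, 12, 21 and 35, on the log2 scale with its standard error (y axis, 0 marked by a line); filled points were called. Cyp26a1, Cyp26b1 and Dhrs3 were below 0 at all 5 days, the Dhrs3 difference moved from -7.52 to -2.08, and the Aldh1a1 points lay above 0 from day 5.

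Read against all genes tested, the enzymes were called as follows. Rod primed against untreated called 3 of the 8, beside 10.3% of the 18150 genes, and their median difference was 0.73 on the log2 scale beside 0 for all genes. Cone primed against untreated called 0 of the 8 and 0% of all genes in edgeR. With an unadjusted p under 0.05 that comparison had 0 of the 8 enzymes and 200 genes in all, and DESeq2 and voom called 0 genes too. Its intervals were wide for the low genes: 95% limits ran from -3.49 to 3.81 for Cyp26b1 and from -0.59 to 0.85 for Cyp26a1. Cone against rod called 3 of 8 on day 0 (7.27% of all genes), 3 on day 5 (9.28%), 4 on day 12 (10.1%), 5 on day 21 (9.00%) and 5 on day 35 (12.3%). Over the mean of days 5 to 35 it called 6 of 8, beside 27.8%, with Cyp26a1, Cyp26b1 and Dhrs3 lower in cone and Aldh1a1, Aldh1a2 and Rdh10 higher. The count on day 21 fell to 3 without cone day 21 replicate 1 or 3 or rod day 21 replicate 2 or 3.

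Changes with time were common among all genes, and the enzymes' counts have to be read against that. In cone culture 5, 6, 6 and 8 of the 8 were called against cone primed on days 5, 12, 21 and 35, beside 22.3%, 48.4%, 52.6% and 57.7% of all genes. In rod culture 1, 3, 5 and 5 were called against rod primed, beside 17.5%, 42.4%, 50.8% and 55.6%. These 4 comparisons within each culture share their primed libraries. The cone day 5 count fell to 2 without cone primed replicate 2 or 3 or cone day 5 replicate 2, and to 3 without cone day 5 replicate 3. The rod day 21 count fell to 3 without rod primed replicate 1 or 2 or rod day 21 replicate 1. The test for a change of the cone minus rod difference with day, day 0 included, called 3 of 8, beside 9.22% of all genes. These were Dhrs3, Cyp26a1 (adjusted p = 0.0236) and Rdh10 (adjusted p = 0.0459). It set days 5, 12, 21 and 35 against day 0, and change among those later days alone was not tested. Only Dhrs3 was called without the libraries of each number, and the count was 1 without the libraries numbered 1 or 3. Without the libraries numbered 1, 2 or 3, the p of Rdh10 was 0.0799, 0.164 and 0.565, and that of Cyp26a1 was 0.1 without those numbered 1 and 0.495 without those numbered 3. Rdh10 was not called either with no filter (0.0536), with a filter at a mean of 1 CPM (0.0545) or without mitochondrial and rRNA genes (0.0502). DESeq2 called Cyp26b1, Aldh1a1 and Aldh1a2 as well (0.0431, 0.0443 and 0.0281). Aldh1a1 was also called with no filter (0.0374), under voom (0.0332) and without the libraries numbered 2 (0.0164).

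Per kilobase of exon, which allows levels of different genes to be set side by side, the leading enzyme changed with culture and day. Cyp26a1 led in untreated cells at 11.4 ± 6.39 CPM per kb (SD, n = 3), followed by Rdh10 at 5.52 ± 1.43. In rod primed cells Cyp26a1 stood at 129 ± 14.1, Dhrs3 at 17.4 ± 3.41 and Cyp26b1 at 11.5 ± 3.89. At rod day 35 Dhrs3 led at 135 ± 25.3, with Cyp26a1 at 94.7 ± 18.2 and Cyp26b1 at 61.6 ± 22.4. In cone culture Aldh1a1 led from day 5, at 12.0 ± 3.06 CPM per kb, and reached 120 ± 54.9 on day 35, where Dhrs3 had 31.9 ± 5.25, Rdh10 15.8 ± 1.98 and Aldh1a2 5.16 ± 4.66.

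The summed level of the 3 Cyp26 genes was 12.6 ± 7.51 CPM per kb in untreated and 13.6 ± 6.15 in cone primed cells, against 141 ± 17.1 in rod primed cells. It was 215 ± 17.3, 136 ± 22.5, 132 ± 31.3 and 157 ± 11.5 in rod culture on days 5, 12, 21 and 35, and 7.85 ± 0.97, 3.43 ± 0.75, 4.28 ± 1.38 and 6.12 ± 2.03 in cone culture. The summed level of the 3 Aldh1a genes went from 12.3 ± 3.10 at cone day 5 to 128 ± 50.7 at cone day 35, and from 6.47 ± 3.32 to 22.5 ± 5.99 in rod culture. Synthesis transcripts thus outweighed breakdown transcripts in cone culture at all 4 days and were outweighed by them in rod culture. The log2 ratio of the Aldh1a sum to the Cyp26 sum was 0.34 to 1.13 in cone day 5 libraries and 3.44 to 5.60 in the later cone libraries. It was -5.92 to -4.46 in rod day 5 libraries and -5.44 to -1.57 in the later rod libraries, and -2.89 to -0.66 in untreated cells. This ratio is a description of transcript levels, with no test, and says nothing of enzyme activity.

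**Figure D4:**
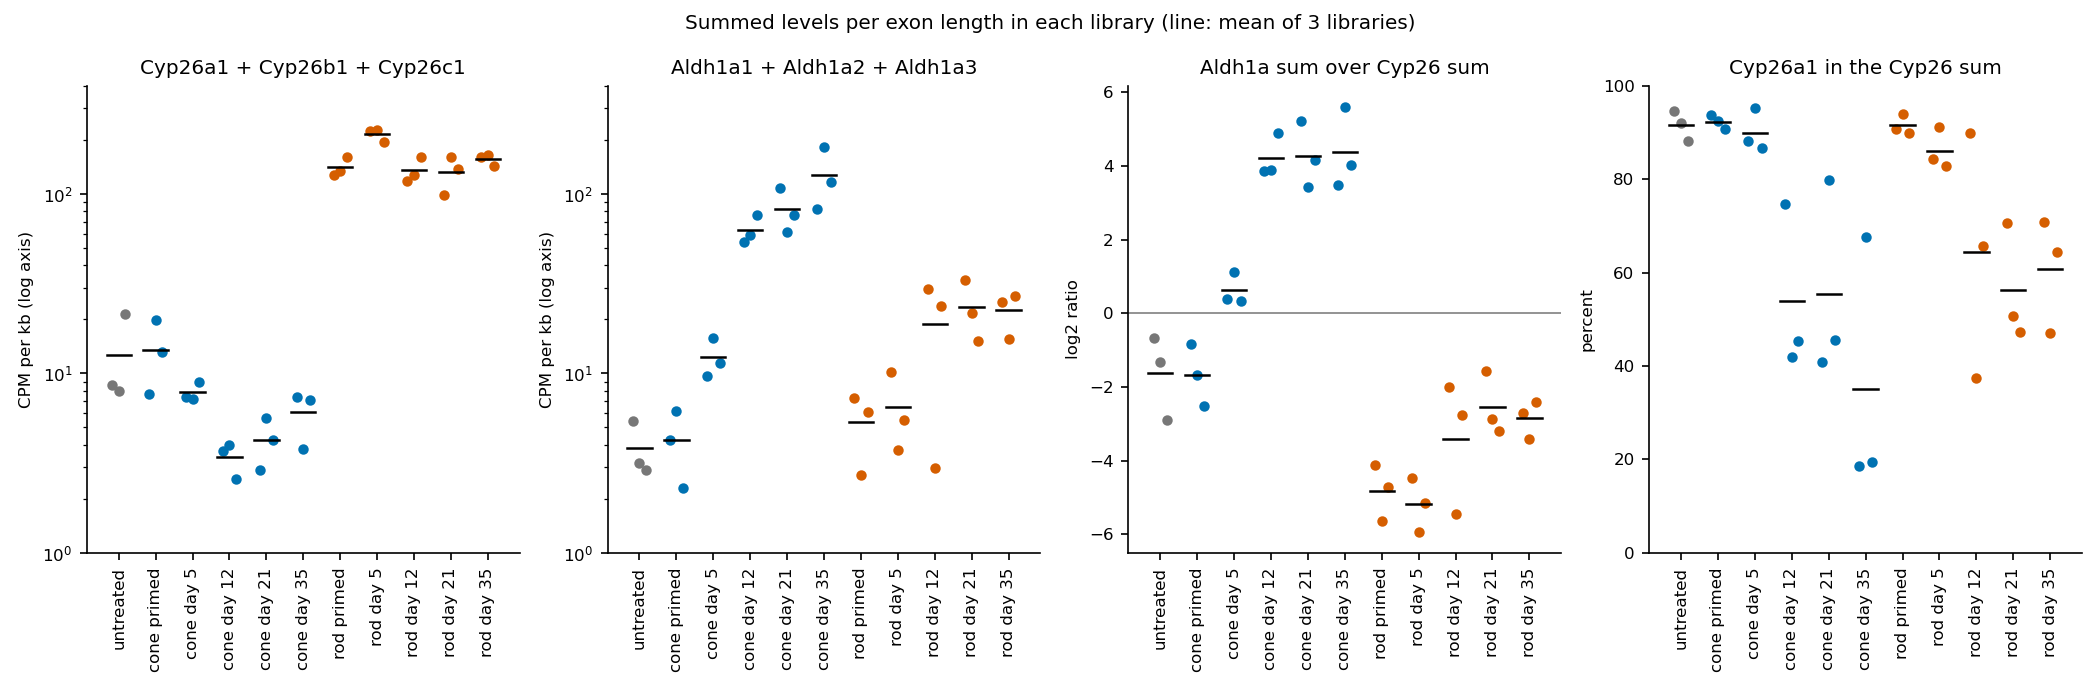
Summed CPM per kb of the 3 Cyp26 genes and of the 3 Aldh1a genes in each library (log axes), the log2 ratio of these sums, and the percent of the Cyp26 sum held by Cyp26a1; points are libraries and lines are means of 3. The ratio was above 0 in all 12 cone libraries of days 5 to 35 and below 0 in all other libraries.

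Cyp26a1 made up a smaller share of the Cyp26 sum, and Cyp26b1 a larger one, in the later groups of both cultures, described here with no test. Cyp26a1 held 91.6 ± 3.20% of the sum in untreated cells, 92.4 ± 1.45% after cone priming and 91.6 ± 2.24% after rod priming. It held 90.0 ± 4.62%, 54.0 ± 17.9%, 55.5 ± 21.3% and 35.2 ± 28.1% in cone culture on days 5, 12, 21 and 35. In rod culture it held 86.1 ± 4.45%, 64.3 ± 26.3%, 56.2 ± 12.6% and 60.8 ± 12.3%. Single libraries differed widely from day 12 on, from 37.4 to 89.9% at rod day 12 and from 18.6 to 67.7% at cone day 35, so the later groups of the 2 cultures overlapped in this share. Among the Aldh1a genes, Aldh1a1 held 67.6 ± 6.08% of the sum in untreated cells and 85.9 to 99.5% in each cone and rod library from day 5 on. Rdh10 exceeded Dhrs3 per kb in untreated cells by 6.71 ± 0.56 on the log2 scale and was below it in rod primed cells by -1.16 ± 0.14. In cone culture this ratio went from 1.36 ± 0.93 on day 5 to -1.01 ± 0.22 on day 35, so both cultures ended with more reductase than dehydrogenase transcript.

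Aldh1a2, Aldh1a3, Cyp26b1 and Aldh1a1 differed widely among the 3 cone day 35 libraries, and so did markers of mesenchyme, the connective tissue cells that surround the eye. The summed level of 10 mesenchyme markers (collagens, Pdgfra and others) was 2950, 562 and 3780 CPM in cone day 35 replicates 1, 2 and 3, and 379, 821 and 295 CPM in rod day 35. Replicate 2, with the least, also had the least Aldh1a2, Aldh1a3 and Cyp26b1 of the 3, and the most Aldh1a1. All 10 markers had counts in both groups. On day 35, 6 of the 9 tested were called higher in cone, beside 12.3% of all genes called in either direction. The list median was 2.36 on the log2 scale beside 0.025 for all genes. The same list summed to 5.00 to 26.9 CPM in untreated cells, 633 to 738 CPM at cone day 21 and 199 to 395 CPM at rod day 21. Of the microglia markers, 6 of 6 tested were called higher in cone on day 35, beside the same 12.3% of all genes. Microglia marker sums were 46.3 to 258 CPM in cone against 1.87 to 3.07 CPM in rod. The part of these cells in the enzyme levels was not tested. Without cone day 35 replicate 1, 2 or 3, Aldh1a3 differed by 0.925, 1.41 and 0.412 on the log2 scale on day 35. EdgeR did not call it in any of these fits (adjusted p = 0.42, 0.0988 and 0.763).

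**Figure D5:**
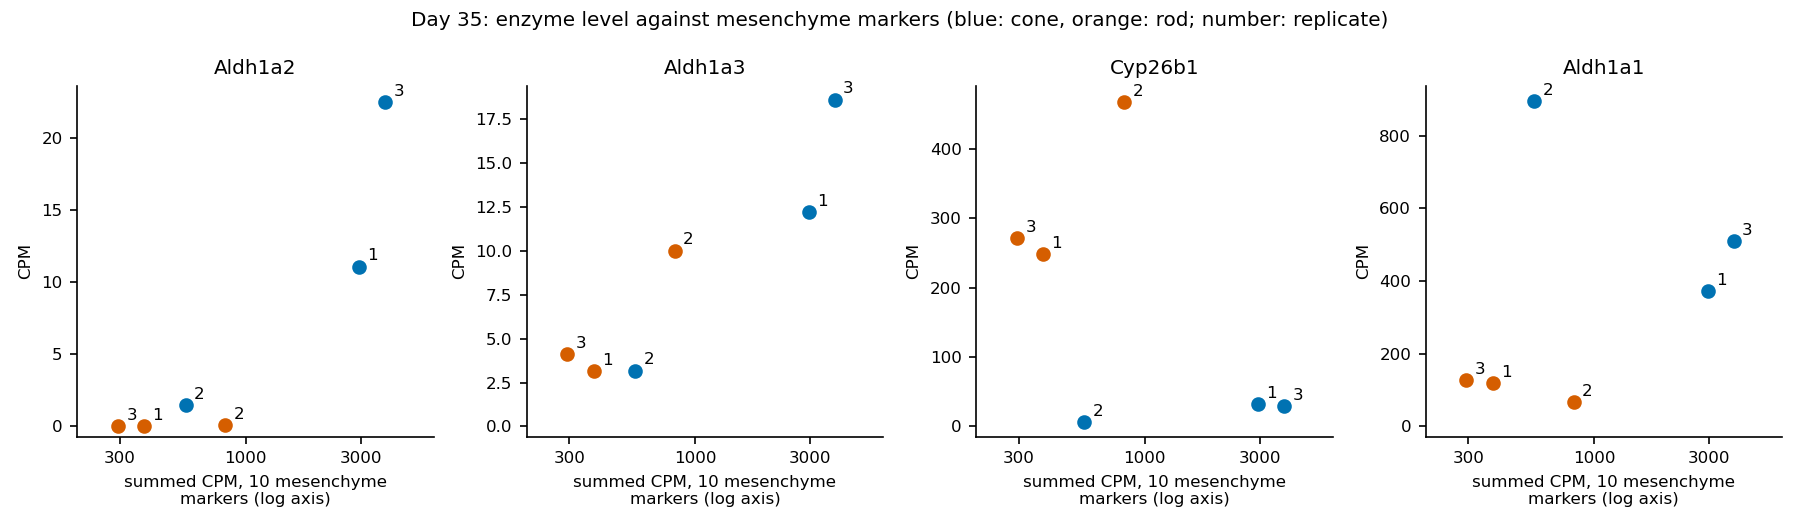
CPM of Aldh1a2, Aldh1a3, Cyp26b1 and Aldh1a1 (y axes) against the summed CPM of 10 mesenchyme markers (x axis, log scale) in the 3 cone (blue) and 3 rod (orange) libraries of day 35, numbered by replicate. Cone replicates 1 and 3, at 2950 and 3780 CPM of markers, had more Aldh1a2, Aldh1a3 and Cyp26b1 and less Aldh1a1 than cone replicate 2, at 562 CPM.

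Other marker lists moved beside the rod values. Rod day 12 replicate 2, low in Cyp26a1, Dhrs3 and Aldh1a1 and high in Cyp26b1, had 706 CPM of 10 cell cycle genes against 1700 and 1220 CPM in replicates 1 and 3, and 474 CPM of 6 dorsal retina genes against 715 and 908 CPM. Without it the day 12 cone minus rod differences were -5.87 for Cyp26a1, -4.55 for Cyp26b1 and -3.27 for Dhrs3, all called (adjusted p at or below 1.88e-05). Dorsal retina genes summed to 628 to 697 CPM in rod primed cells against 208 to 275 CPM in untreated cells, and 3 of the 6 were called higher, beside 10.3% of all genes called in either direction. Ventral retina genes summed to 375 to 430 CPM against 224 to 248 CPM, with 1 of 6 called higher. Progenitor genes summed to 1650 to 2070 CPM against 1250 to 1410 CPM, with 5 of 12 called higher and 2 lower. Cell cycle genes summed to 1880 to 2360 CPM against 868 to 1320 CPM, with 6 of 10 called higher. Muller glia and astrocyte markers summed to 1400 to 1610 CPM in rod primed cells against 603 to 734 CPM, with 4 of 8 called higher. They summed to 4120 to 4400 CPM at cone day 35 and to 2430 to 4070 CPM at rod day 35. In that comparison 1 of 8 was called higher in cone, beside 12.3% of all genes called in either direction. Pigment epithelium markers summed to 2.92 to 34.1 CPM over all libraries. Their part in the enzyme values was not tested.

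Genes whose course over the 11 group means was most like each enzyme's were picked by Pearson's r on log2 CPM. The points share their libraries and the values are descriptions. Cyp26a1 was most like Fam172a, Tbx2 and Vash2 (r = 0.965, 0.957 and 0.956). Bmp2 and Rarb, which encodes a retinoic acid receptor, were among those most like Cyp26b1 (0.972 and 0.964). Dhrs3 was most like Slc13a5, Col9a1 and Adamts5 (0.987, 0.984 and 0.978). Aldh1a1 was most like St3gal2, Wisp1 and Ctsz (0.994, 0.985 and 0.983), and Rdh10 most like Wfs1, Tor3a and Rgma (0.99, 0.988 and 0.984). The low genes had lower likeness: Aldh1a2 with Stat2, Adar and Adam8 (0.932, 0.931 and 0.894), Aldh1a3 with Ebf2, BC037039 and Zfpm1 (0.962, 0.937 and 0.927), and Cyp26c1 with Pcgf2, Ywhab and Sub1 (0.929, 0.915 and 0.912). Between the enzymes themselves r was highest for Aldh1a1 with Rdh10 (0.96) and Cyp26b1 with Dhrs3 (0.93), and lowest for Aldh1a1 with Cyp26c1 (-0.77). Cyp26a1 and Cyp26b1 had r = 0.65.

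Of 26 other retinoid enzymes, 16 were tested. Over the mean of days 5 to 35, 1 was called higher in cone and 2 lower, beside 27.8% of all genes called, with a median difference of 0.01 on the log2 scale beside 0.011 for all genes. Lrat, which esterifies retinol for storage, was lower in cone by -3.40 ± 0.78 (adjusted p = 0.00198). Of days 5, 12, 21 and 35, only day 5 was called, at -5.76 ± 1.00 (adjusted p = 0.000622). The day 35 difference was -0.27 ± 1.51 (adjusted p = 0.943), with means of 0.0807 CPM in cone and 0.109 CPM in rod. Lrat had 0.0222 ± 0.0385 CPM in untreated, 3.83 ± 2.06 CPM in rod primed, 5.09 ± 3.29 CPM in rod day 5 and 0.0862 ± 0.103 CPM in cone day 5 cells. Bco2, a carotenoid-cleaving oxygenase, was lower in cone by -0.66 ± 0.23 (adjusted p = 0.0308), and Rdh8, a retinol dehydrogenase of photoreceptors, was higher by 2.65 ± 0.94 (adjusted p = 0.0364). The Rdh8 mean on day 12 was lower in cone, at 1.95 ± 2.34 CPM against 3.92 ± 6.24 CPM. The Bco2 mean on day 5 was higher in cone, at 0.971 ± 0.0986 CPM against 0.752 ± 0.184 CPM. Neither Bco2 nor Rdh8 was called between cone and rod on any single day. Lrat, Bco2 and Rdh8 libraries were without overlap at 2 of the 4 days each.

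Of 20 genes for retinoid receptors, their cofactors and carriers, all were tested, and 3 were called higher and 7 lower in cone over the mean of days 5 to 35, beside 27.8% of all genes called, with a median of -0.14. Rarb was lower by -2.72 ± 0.11 (adjusted p = 1.30e-15), without overlap at all 4 days. Rarb went from 0.613 ± 0.358 CPM in untreated to 97.3 ± 6.37 CPM in rod primed cells, a rise of 7.34 ± 0.31 (adjusted p = 6.55e-15). Its cone minus rod difference was -7.24 ± 0.32 on day 0 and -2.01 ± 0.21 on day 35. Rbp3, a retinoid carrier made by photoreceptors, was higher in cone by 2.55 ± 0.56 (adjusted p = 0.00106), without overlap on 2 of the 4 days, and its day 12 mean was 150 ± 193 CPM in cone against 167 ± 250 CPM in rod. Rxra, the partner receptor, was higher in cone by 0.48 ± 0.09 (adjusted p = 0.000205), without overlap on 3 of the 4 days.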

How the data were processed

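Per the submitters' processing notes, reads were processed with HISAT2, StringTie and HTSeq against GRCm38, with versions not given in the sources used here. The authors deposited raw read counts per gene and, in separate files, FPKM and TPM values. The counts were analysed, and the deposited TPM served as an alternative with limma (log2 of TPM plus 1). Symbols came from the authors' files and gene positions from GENCODE M21. Lines of unassigned reads were left out, so that 26.9 to 34.9% of the reads counted were in genes. Genes were filtered with filterByExpr (minimum count 10), scaled by TMM and fitted over all 33 libraries as 11 group means in edgeR 4.0.16 (glmQLFit, glmQLFTest; R 4.3.3), with Benjamini-Hochberg adjustment over 18150 genes. Alternatives were DESeq2 1.42.0, limma 3.58.1 voom with quality weights, other filters, the compared libraries only, a replicate block, leaving out mitochondrial and rRNA genes, and leaving out each library. The fit was checked on simulated counts. All 8 enzymes are reported, whatever their result. Of each other retinoid list, up to 2 called rises and 2 called falls over the mean of days 5 to 35 are named, those without overlap on every day first, and the like genes were the 3 with the highest r. The genes, lists and tests were chosen with earlier results of these data known, and the rRNA set after the counts were seen. Intervals on counts cover counting error only. A few genes that these rules would name are not reported here.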

Additional observations from a re-analysis of the deposited data

Results flagged for a closer look

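For 3 enzymes edgeR's joint test of days 5, 12, 21 and 35 against day 0 called a change of the cone minus rod difference. The adjusted p was 1.43e-05 for Dhrs3, 0.0236 for Cyp26a1 and 0.0459 for Rdh10. Change among the later days alone was not tested. Dhrs3 was called under each of the 11 alternatives run on its counts, Cyp26a1 was lost under 2 (0.1 and 0.495 without the libraries numbered 1 or 3), and Rdh10 was lost under 6, at 0.0502 to 0.565. The Dhrs3 difference was -7.52 at day 0, -3.45 at day 5 and -2.08 at day 35 on the log2 scale. On the same days that of Cyp26a1 was -3.35, -4.72 and -5.74, and that of Rdh10 was -0.40, -0.11 and 0.46.

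The deposited TPM, which the comparisons do not use, held signal for Cyp26c1 above the untreated libraries, whose highest was 11.0. Its mean was 22.7 in rod primed, 57.5 at rod day 5, 22.6 at rod day 12 and 16.8 at rod day 21. The counts of the same libraries were 0 to 14.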

How the results depend on the processing

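Over 17 counts of called enzymes and 8 alternatives other than the deposited TPM and leaving out libraries, 133 of 136 were within 1.5 times the reported count and 105 equalled it. The exceptions were rod day 5 against rod primed, with 3 under voom and 3 with the compared libraries only, and the change with day, with 6 under DESeq2. The deposited TPM called 1 for rod primed against untreated, 1, 3 and 2 for cone against rod at days 0, 21 and 35, 1, 0, 2 and 3 for cone days 5, 12, 21 and 35 and 2, 2 and 1 for rod days 5, 21 and 35 against primed cells, and 0 for the change with day. Its values for single enzymes are not given, because they appeared to follow the opposite strand. Leaving out a library gave 3 to 5 for cone against rod at day 21, 2 to 4 for cone day 5, 3 to 4 for rod day 21 and 1 to 3 for the change with day. Of 71 called results of single enzymes, 51 were called under every alternative run other than the deposited TPM, 20 were lost under at least 1, and 0 reversed.

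Reversals were seen only in differences that were not called. For cone primed against untreated, Cyp26a1 was -0.128 under voom, and leaving out a library gave -0.269 to 0.73 for Cyp26a1, -0.218 to 0.573 for Cyp26b1, -0.557 to 1.03 for Cyp26c1, -1.60 to 0.008 for Aldh1a2 and -0.030 to 0.336 for Rdh10. For cone against rod it gave -0.563 to 0.655 for Aldh1a3 at day 5, and for Cyp26c1 -0.97 to 0.69 at day 12, -0.577 to 0.371 at day 21 and -1.95 to 0.198 at day 35.

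With the replicate block, Cyp26c1 was 0.083 for cone primed against untreated and 0.098 for cone against rod at day 21. The block gave 4 called enzymes in place of 3 at rod day 12 and 4 in place of 5 at rod day 21, and changed no other count. The numbers were not taken as pairs: in 0 of 15 comparisons did every same-numbered pair correlate above 0.1, and 12 of the 45 same-numbered pairs correlated best with their own number. Low counts limit Cyp26c1 and Aldh1a2 most.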
